A study of Mus musculus with 2 samples.

Results

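*Alpl*, which encodes tissue-nonspecific alkaline phosphatase, was examined together with 9 other genes of mineralization and bone formation in primary rib chondrocytes. These were *Enpp1*, *Spp1*, *Runx2*, *Sp7*, *Mgp*, *Ibsp*, *Slc20a1*, *Slc20a2* and *Dlx5*. The 10 genes were chosen by name out of 22156 genes, with the counts of both libraries already known, and the low *Alpl* count in *Myl3*-KO was the reason for placing it at the centre. Their values are therefore a description, and no test was applied to them. The control group was 1 library of chondrocytes labelled wild type (WT), which the study's methods describe as coming from littermates with floxed *Myl3* alleles (*Myl3* flox/flox) and without the recombinase. The *Myl3*-KO group was 1 library from *Col2a1*-Cre; *Myl3* flox/flox mice, in which a Cre recombinase driven by the *Col2a1* promoter deletes the floxed alleles. Only cells that have used that promoter lose the gene. Both came from rib cartilage of newborn C57BL/6J mice, were untreated, and grew as a monolayer in medium with serum.

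The libraries held 17612434.91 expected counts in control and 13477976.98 in *Myl3*-KO, where an expected count estimates the reads of a gene. *Myl3* had 0 counts in both, so the genotype could not be checked from the deleted gene. Of 9 chondrocyte markers, *Acan*, *Matn1*, *Matn3* and *Hapln1* were at 0 in both libraries, and the list summed to 15.4 FPKM in control and 14.6 in *Myl3*-KO, where FPKM is reads scaled by gene length and library size. Most of that sum was *Sox9*, at 11.89 and 8.61 FPKM, and *Col11a2* went the other way, at 3.15 and 5.46 FPKM. *Col2a1*, whose promoter drives the recombinase, had 30 counts in control and 27 in *Myl3*-KO, or 0.35 and 0.41 FPKM. These counts did not establish the labelled cell type. Markers of fibroblasts and perichondrium summed to 2940.1 and 3285.3 FPKM, with *Thy1* at 0, and most of that sum was *Col1a2*, at 2252.9 and 2629.69 FPKM. Skeletal muscle markers were at 0 in both libraries for 4 of 5 genes.

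Mineral forms where phosphate is set free and pyrophosphate, which blocks crystal growth, is removed. Alkaline phosphatase cleaves pyrophosphate to phosphate, ENPP1 makes pyrophosphate outside the cell, and the sodium-dependent transporters encoded by *Slc20a1* and *Slc20a2* carry phosphate inward. Acidic matrix proteins such as osteopontin (*Spp1*) and bone sialoprotein (*Ibsp*) bind mineral, and matrix Gla protein (*Mgp*) keeps cartilage and vessels from calcifying. RUNX2, SP7 and DLX5 are transcription factors that drive osteoblast formation, and RUNX2 also drives chondrocytes into hypertrophy, the stage at which growth plate cartilage mineralizes.

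The promoters are shown because *Alpl*, chosen for its low *Myl3*-KO count, stood apart in its ratio of *Myl3*-KO over control. The other reason is that *Runx2* was the most strongly expressed transcription factor gene among the 10 genes. The recognition core of RUNX2 is TGTGGT. RefSeq windows around annotated transcription starts on GRCm38.p6 were matched for 6 of the 10 genes, in 9 windows. *Sp7*, *Mgp*, *Slc20a2* and *Dlx5* were not matched. Sequences run 5′ to 3′ along the gene's strand, and capitals mark the RUNX core (TGTGGT or its complement ACCACA) and the GC box (GGGCGG or CCGCCC). *Alpl* has 2 windows, for its separate first exons at chr4:137796335-137796634 and chr4:137766426-137766725 on the minus strand. The others are *Enpp1* at chr10:24712110-24712409 on the minus strand, *Spp1* at chr5:104434861-104435160 on the plus strand and *Runx2* at chr17:44814578-44814877 on the minus strand.
Alpl upstream start: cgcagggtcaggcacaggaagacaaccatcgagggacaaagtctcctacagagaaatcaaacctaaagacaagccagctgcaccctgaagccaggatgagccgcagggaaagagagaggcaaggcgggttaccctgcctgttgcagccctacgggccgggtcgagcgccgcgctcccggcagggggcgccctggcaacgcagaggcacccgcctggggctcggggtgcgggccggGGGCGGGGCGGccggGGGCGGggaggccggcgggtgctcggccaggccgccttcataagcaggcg
Alpl downstream start: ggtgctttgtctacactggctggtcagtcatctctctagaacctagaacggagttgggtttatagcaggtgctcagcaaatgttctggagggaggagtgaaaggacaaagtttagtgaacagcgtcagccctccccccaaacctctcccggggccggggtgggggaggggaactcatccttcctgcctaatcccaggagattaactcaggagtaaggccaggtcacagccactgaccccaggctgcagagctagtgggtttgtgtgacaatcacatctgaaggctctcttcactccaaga
Enpp1: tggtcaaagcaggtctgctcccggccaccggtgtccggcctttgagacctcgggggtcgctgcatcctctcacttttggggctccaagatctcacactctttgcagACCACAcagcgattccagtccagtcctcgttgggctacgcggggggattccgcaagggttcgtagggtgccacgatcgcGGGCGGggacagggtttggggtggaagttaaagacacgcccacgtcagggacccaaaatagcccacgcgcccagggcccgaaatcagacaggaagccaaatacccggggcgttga
Spp1: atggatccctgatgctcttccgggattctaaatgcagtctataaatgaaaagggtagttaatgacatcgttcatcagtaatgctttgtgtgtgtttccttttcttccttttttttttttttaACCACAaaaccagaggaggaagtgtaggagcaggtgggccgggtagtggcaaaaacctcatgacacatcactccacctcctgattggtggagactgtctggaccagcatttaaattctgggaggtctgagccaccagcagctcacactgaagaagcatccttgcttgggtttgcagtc
Runx2: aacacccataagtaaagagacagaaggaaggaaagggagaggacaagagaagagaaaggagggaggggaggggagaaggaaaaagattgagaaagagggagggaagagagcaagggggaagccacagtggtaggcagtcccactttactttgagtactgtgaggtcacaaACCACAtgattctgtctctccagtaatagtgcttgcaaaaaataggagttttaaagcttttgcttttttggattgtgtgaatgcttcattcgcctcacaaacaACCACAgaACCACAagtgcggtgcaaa

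Neither *Alpl* window held a RUNX core. The upstream window was 70.0% G or C with 26 CpG pairs and 3 GC boxes next to the start, of which the first 2 overlap, while the downstream window was 54.3% G or C with 4 CpG pairs and no GC box. Over all 32851 windows the median GC share was 52.7%. The RUNX core was found in 4 of the 9 windows, those of *Enpp1*, *Runx2*, *Slc20a1* (the upstream of its windows) and *Spp1* (likewise), and in 16.8% of all windows. In *Spp1* it lay 128 bases before the start and in *Enpp1* 144 bases before it. *Runx2* held 3 copies, of which 1 lay 80 bases before the start and the others after it. The GC box was found in 4 of the 9 windows and in 35.7% of all. The sequence TATAAA or its complement TTTATA, searched without regard to its distance from the start, was found in 4 of the 9, including that of *Ibsp*, and in 13.6% of all. The homeobox core TAATTA was found in 1 of the 9, the downstream window of *Spp1*, and in 5.29% of all. A match of letters is no evidence that a factor binds there.

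In the *Myl3*-KO library *Alpl* was far below control, *Spp1* was moderately above it, and the other genes with enough counts lay close to it. *Alpl* was 5.03-fold lower and *Spp1* was 1.56-fold higher. Ratios are of CPM, which are counts scaled to the library total, with counts under 3 raised to 3. Intervals are 95% Clopper-Pearson intervals that cover counting error only, since each genotype had 1 library. At these depths 3 counts correspond to 0.170 CPM in control and 0.223 CPM in *Myl3*-KO. Of the 10 genes, 9 had at least 10 counts over both libraries, as did 12431 genes in all, and *Ibsp* did not. A log2 ratio of at least 1 in size was taken as the limit. On the lower side 1 of the 9 genes passed it, *Alpl*, against 1.19% of all genes. On the higher side 0 of the 9 passed it, against 2.16% of all genes. The interval lay wholly below 0 for *Alpl*, against 20.1% of all genes, and wholly above 0 for *Runx2* and *Spp1*, against 22.2%. The median log2 ratio was -0.08 over the 9 genes and 0.02 over all genes.

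**Figure D1:**
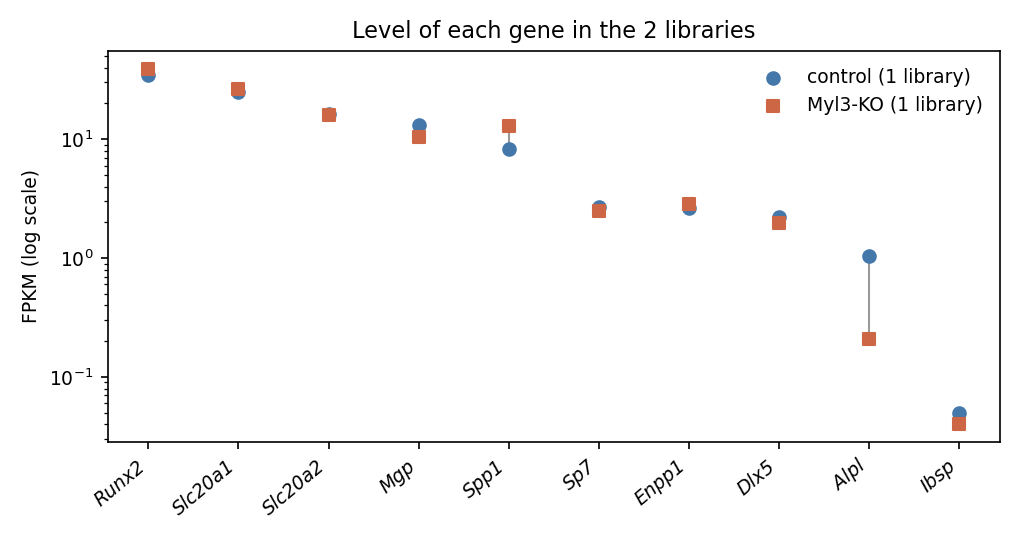
Level of each of the 10 genes in FPKM on a log scale, with a circle for the control library and a square for the *Myl3*-KO library. *Alpl* shows the widest gap, from 1.04 to 0.21 FPKM, and *Spp1* and *Mgp* change places.

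In FPKM, which allows genes to be compared, the order in control was *Runx2* (34.67), *Slc20a1* (25.16), *Slc20a2* (16.38), *Mgp* (13.07), *Spp1* (8.34), *Sp7* (2.68), *Enpp1* (2.62), *Dlx5* (2.21), *Alpl* (1.04) and *Ibsp* (0.05). In *Myl3*-KO, *Spp1* at 12.96 FPKM stood above *Mgp* at 10.46, and *Enpp1* at 2.85 above *Sp7* at 2.5, and all other places were kept. With 1 library per genotype, there is no replicate spread against which neighbours in this order could be judged. In bulk RNA, fewer cells expressing a gene and less RNA per cell cannot be told apart.

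*Alpl* (ENSMUSG00000028766) lies on the minus strand of chromosome 4 of GRCm38 from 137741733 to 137796384, and its longest coding transcript has 12 exons. It had 46 counts in control (95% Poisson interval 33.7 to 61.4) and 7 in *Myl3*-KO (2.81 to 14.4). This is 2.61 CPM in control and 0.519 CPM in *Myl3*-KO. The *Myl3*-KO level was 19.9% of control. The log2 ratio was -2.33, with an interval of -3.72 to -1.17. *Alpl* was placed at the centre because of this low *Myl3*-KO count, so the interval describes the value and lends it no support. The locus overlaps no other annotated gene. *Alpl* was the alkaline phosphatase gene read in these cells, since the intestinal and germ cell enzymes *Alpi*, *Alppl2* and *Akp3* had 0 counts in both libraries.

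Few genes had a ratio as low as that of *Alpl*. Ranked from the lowest log2 ratio, it was in place 2 of 12431 behind *Gm20431*. Among the 11123 genes with at least 50 counts it was in place 1. That cut lies just below the 53 counts of *Alpl*, and *Gm20431*, with 32.95 counts in control and 0.26 in *Myl3*-KO, falls under it. *Alpl* was chosen for its low *Myl3*-KO count, so its place among other genes restates that choice and lends it no support. These places hold with counts under 3 raised to 3, which limits how low a gene near 0 counts in *Myl3*-KO can rank. Of the 1035 genes with a total from 30 up to 100 counts, where *Alpl* with 53 falls, 2.61% passed the limit on the lower side, *Alpl* among them. The 5th percentile of the log2 ratio in this range was -0.82. The genes whose ratio was nearest to that of *Alpl* over the 2 libraries were *Gm10131*, *Prkg1*, ENSMUSG00000106892, XLOC_008919 and *Olfr482*, with log2 ratios from -2.33 to -1.92. *Olfr482* went from 14.83 to 2.84 counts and XLOC_008919 from 16 to 3.

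**Figure D2:**
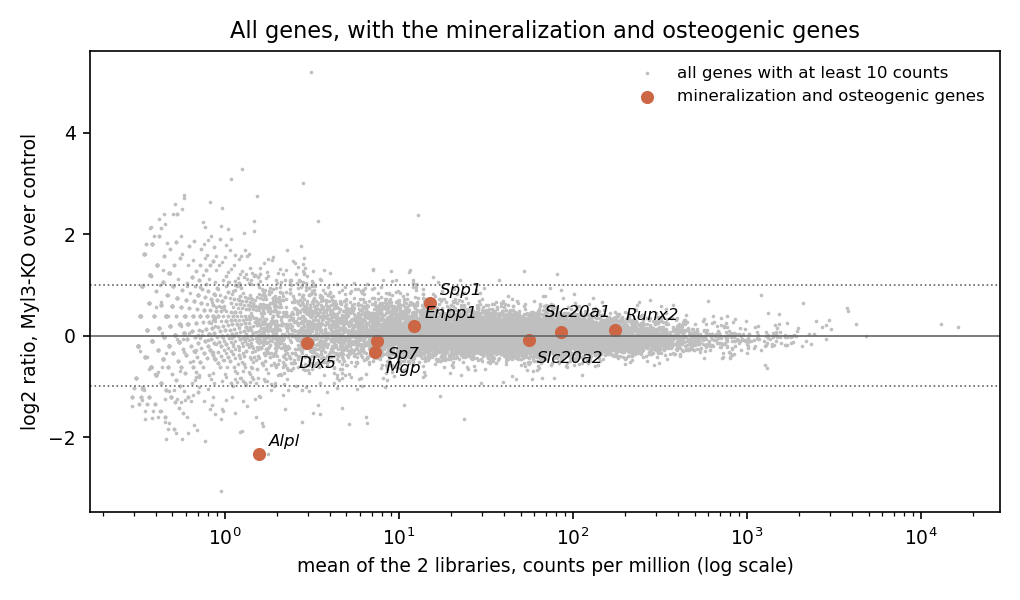
Log2 ratio of *Myl3*-KO over control against the mean CPM of both libraries on a log scale, for all genes with at least 10 counts (grey) and for 9 of the 10 genes (orange). Dotted lines mark the limit of 1 in each direction. *Alpl* at -2.33 lies at the lower edge of the cloud, and the spread of all genes narrows as the level rises.

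The enzyme that opposes it, *Enpp1* (ENSMUSG00000037370, chromosome 10 from 24637914 to 24712159, minus strand), had 201 counts in control and 175 in *Myl3*-KO. This is 11.4 and 13.0 CPM, and the log2 ratio of 0.19 had an interval of -0.11 to 0.49. The interval included 0, so no difference was detectable at this depth, and a difference as large as the limit lay outside it. *Alpl* and *Enpp1* share no pathway in the pathway annotation that came with the counts, which lists *Alpl* under thiamine metabolism and folate biosynthesis and *Enpp1* under 6 pathways of nucleotide, sugar and vitamin metabolism. The level of *Enpp1* was 2.52 times that of *Alpl* in control and 13.6 times in *Myl3*-KO, as ratios of FPKM. From the counts, the log2 ratio of *Enpp1* exceeded that of *Alpl* by 2.52 (interval 1.31 to 3.94). This difference does not depend on how the libraries are scaled. It reuses the *Alpl* counts for which that gene was chosen and lends them no support.

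Of a list of 13 genes of phosphate and pyrophosphate metabolism and mineralizing vesicles, 12 had enough counts. The interval was wholly below 0 for 3, against 20.1% of all genes, wholly above for 4, against 22.2%, and across 0 for 5. The median log2 ratio was 0.06. The lower genes were *Alpl*, *Smpd3* and *Phospho1*. *Phospho1* encodes the phosphatase that frees phosphate from phosphocholine inside matrix vesicles, and it had 90.93 counts in control and 45.33 in *Myl3*-KO, with -0.62 as the log2 ratio (interval -1.18 to -0.10). *Smpd3* encodes a sphingomyelinase needed for skeletal mineralization, and it had 35.02 and 14 counts, with -0.94 as the log2 ratio (interval -1.94 to -0.01). Their loci overlap those of better counted genes, *Zfp652* for *Phospho1* and *Prmt7* for *Smpd3*, so their reads may have been divided between neighbours. The ratio of *Phospho1* exceeded that of *Alpl* by 1.71 on the log2 scale (interval 0.39 to 3.20). For *Smpd3* the excess of 1.39 had an interval that included 0 (-0.20 to 3.09). Both comparisons reuse the *Alpl* counts for which that gene was chosen.

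On the higher side were *Anxa2* and *Anxa6*, which encode annexins, with log2 ratios of 0.04 (interval 0.01 to 0.07) and 0.19 (0.09 to 0.28). The pyrophosphate exporter *Ank* had 1191 counts in control and 1064 in *Myl3*-KO, with 0.22 as the log2 ratio (interval 0.10 to 0.34). *Abcc6*, which encodes a liver transporter that supports pyrophosphate supply, had 1 count in control and 0 in *Myl3*-KO.

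The ENPP relatives of *Enpp1* differed in direction. Of 7 family genes, 4 had enough counts, *Enpp5* and *Enpp7* were at 0 in both libraries, and the median log2 ratio was 0.04. *Enpp2*, which encodes autotaxin, the enzyme that makes lysophosphatidic acid, had 275 counts in control and 374 in *Myl3*-KO, with 0.83 as the log2 ratio (interval 0.60 to 1.06). *Enpp4*, whose product cleaves dinucleotides outside the cell, had 1122 and 568 counts, with -0.60 as the log2 ratio (interval -0.74 to -0.45). In neither did the ratio pass the limit of 1.

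**Figure D3:**
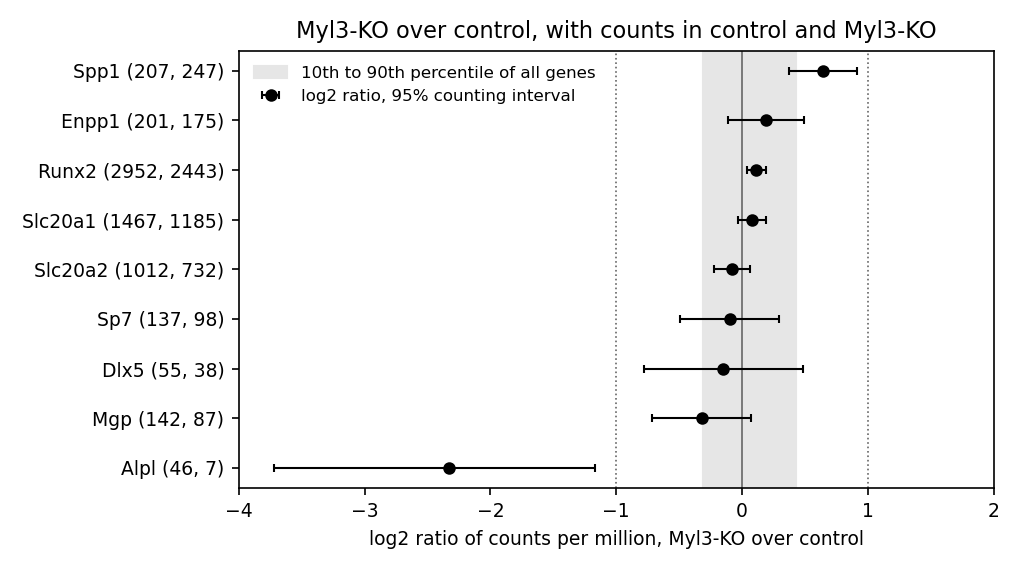
Log2 ratio of *Myl3*-KO over control for the 9 genes with at least 10 counts, with 95% counting intervals and the counts of control and *Myl3*-KO beside each name. The grey band spans -0.31 to 0.43, the 10th to 90th percentile of all genes, and the points of *Alpl* and *Spp1* lie outside it, with *Mgp* at -0.32 just beyond its lower edge.

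The phosphate transporters were well counted and close to control. *Slc20a1* (ENSMUSG00000027397, chromosome 2 from 129198764 to 129211616, plus strand), which encodes PiT-1, had 1467 counts in control and 1185 in *Myl3*-KO. This is 83.3 and 87.9 CPM, with a log2 ratio of 0.08 (interval -0.03 to 0.19). *Slc20a2* (ENSMUSG00000037656, chromosome 8 from 22476788 to 22569612, plus strand), which encodes PiT-2, had 1012 and 732 counts. This is 57.5 and 54.3 CPM, with a log2 ratio of -0.08 (interval -0.22 to 0.06). Both intervals included 0 and ended far from the limit of 1. *Slc20a2* overlaps *Smim19*, on the opposite strand, only at its start, from 22476788 to 22476882. *Smim19* had 354 and 286 counts, and whether counting used strand is not given in the sources used here.

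*Slc20a1* stood above *Slc20a2* by 1.54 times in control and 1.66 times in *Myl3*-KO in FPKM, and the difference of their log2 ratios, 0.16, had an interval of -0.02 to 0.34. The kidney and gut transporter genes *Slc34a1* and *Slc34a3* were at 0 counts in both libraries. The phosphate exporter *Xpr1* had 1392 counts in control and 1255 in *Myl3*-KO, with 0.24 as the log2 ratio (interval 0.13 to 0.35). Of the 7 transporter genes, 4 had enough counts and 0 passed the limit in either direction, with a median log2 ratio of 0.04. Over all genes 1.19% passed it on the lower side and 2.16% on the higher side.

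Of the mineral-binding proteins among the 10 genes, *Spp1* was higher in *Myl3*-KO and *Ibsp* was hardly read. *Spp1* (ENSMUSG00000029304, chromosome 5 from 104435118 to 104441050, plus strand), which encodes osteopontin, had 207 counts in control and 247 in *Myl3*-KO. This is 11.8 and 18.3 CPM, with a log2 ratio of 0.64 (interval 0.37 to 0.91). The interval lay wholly above 0 and ended short of the limit of 1. *Spp1* was in place 656 from the highest ratio of all genes with enough counts, and the 95th percentile in its range of 300 to 1000 total counts was 0.49.

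*Ibsp* (ENSMUSG00000029306, chromosome 5 from 104299171 to 104311469, plus strand), which encodes bone sialoprotein, had 2 counts in control (Poisson interval 0.242 to 7.22) and 1 in *Myl3*-KO (0.0253 to 5.57). Its total of 3 counts lies under the 10 required, so no ratio was formed and a difference was not detectable at this depth. *Spp1* and *Ibsp* belong to the SIBLING family, a row of 5 genes that spans 270.3 kb of chromosome 5. *Spp1* alone was read well in this row. *Dspp* and *Mepe* were at 0 counts in both libraries, and *Dmp1* had 3 in control and 5 in *Myl3*-KO. The pathway column places both *Spp1* and *Ibsp* in ECM-receptor interaction, focal adhesion and PI3K-Akt signaling, and 5 of the 10 genes have no pathway there.

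Of 9 genes for mineral-binding matrix, 3 had enough counts, *Spp1*, *Omd* and *Sparc*. Their median log2 ratio of 0.64 is the value of *Spp1* itself. The interval was above 0 for 2, against 22.2% of all genes, and across 0 for 1. *Omd*, which encodes osteomodulin, a leucine-rich proteoglycan of bone that binds hydroxyapatite, had 867 counts in control and 1534 in *Myl3*-KO. Its log2 ratio was 1.21 (interval 1.09 to 1.33), and it was the 1 gene past the limit on the higher side in any of the role lists. It lies within the locus of *Cenpp*, which had 530.28 and 343.27 counts. *Sparc*, which encodes osteonectin and was named after its values were seen, had 26052 and 19987 counts, with 0.00 as the log2 ratio (interval -0.02 to 0.03). *Bglap2* was at 0 counts in both libraries.

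*Mgp* (ENSMUSG00000030218, chromosome 6 from 136872435 to 136875823, minus strand) had 142 counts in control and 87 in *Myl3*-KO. This is 8.06 and 6.45 CPM, with a log2 ratio of -0.32 (interval -0.72 to 0.07) that included 0. *Mgp* and *Spp1* differed from each other by more than the counting error of their ratios. The level of *Spp1* was 0.638 times that of *Mgp* in control and 1.24 times in *Myl3*-KO in FPKM, and its log2 ratio exceeded that of *Mgp* by 0.96 (interval 0.48 to 1.45). Of 12 genes that restrain calcification, 9 had enough counts and 0 passed the limit. Over all genes 1.19% passed it on the lower side and 2.16% on the higher side. The interval was below 0 for 3, against 20.1% of all genes, above for 3, against 22.2%, and across 0 for 3. The median log2 ratio was 0.00.

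MGP works only after vitamin K-dependent carboxylation. *Vkorc1*, which encodes the enzyme that recycles vitamin K, had 397 counts in control and 247 in *Myl3*-KO, with -0.30 as the log2 ratio (interval -0.53 to -0.07), and its relative *Vkorc1l1* had one of -0.12 (interval -0.21 to -0.03). *Ggcx*, which encodes the carboxylase itself, had 544 and 475 counts, with 0.19 as the log2 ratio (interval 0.01 to 0.37). *Fbn1*, which encodes the microfibril protein fibrillin-1, had 3272.9 and 3973.8 counts, with 0.67 as the log2 ratio (interval 0.60 to 0.73). *Gas6* and *Ahsg* were at 0 counts in both libraries.

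The transcription factors were read at levels close to control. *Runx2* (ENSMUSG00000039153, chromosome 17 from 44495987 to 44814797, minus strand) had 2952 counts in control and 2443 in *Myl3*-KO. This is 167.6 and 181.3 CPM, with a log2 ratio of 0.11. Its interval of 0.04 to 0.19 lay above 0, as it did for 22.2% of all genes, and its many counts make that interval narrow. *Supt3*, on the opposite strand, overlaps the 5′ part of the *Runx2* locus from 44777152 to 44814797. It had 183 counts in control and 178 in *Myl3*-KO. *Sp7* (ENSMUSG00000060284, chromosome 15 from 102356606 to 102367182, minus strand), which encodes osterix, had 137 and 98 counts. This is 7.78 and 7.27 CPM, with a log2 ratio of -0.10 (interval -0.49 to 0.29).

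*Dlx5* (ENSMUSG00000029755, chromosome 6 from 6877805 to 6882085, minus strand) had 55 counts in control and 38 in *Myl3*-KO. This is 3.12 and 2.82 CPM, with a log2 ratio of -0.15. Its interval of -0.78 to 0.48 is wide, since the gene has few counts. Its neighbour *Dlx6*, a homeobox gene 9.24 kb away and named for that position, had 105 and 63 counts, with -0.35 as the log2 ratio (interval -0.83 to 0.11). For both homeobox genes, as for *Sp7*, no difference was detectable at this depth.

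Set against *Runx2*, *Alpl* was lower, which restates the counts for which it was chosen and lends them no support. In FPKM, *Runx2* stood at 33.3 times the level of *Alpl* in control and 187.1 times in *Myl3*-KO, and their log2 ratios differed by 2.44 (interval 1.28 to 3.84). Between *Runx2* and *Sp7* the difference was 0.21 (interval -0.18 to 0.61), and between *Sp7* and *Dlx5* it was 0.05 (interval -0.69 to 0.80).

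Of 18 transcription factors of bone formation and their partners, 17 had enough counts and *Dlx3* was at 0 in both libraries. None of the 17 passed the limit, against 1.19% of all genes on the lower side and 2.16% on the higher side. The interval was below 0 for 3, against 20.1% of all genes, above for 5, against 22.2%, and across 0 for 9. The median log2 ratio was 0.02. The log2 ratio was 0.39 for the homeobox gene *Msx2* (interval 0.14 to 0.64), while for *Runx3*, a relative of *Runx2*, it was -0.42 (interval -0.74 to -0.10). *Cbfb*, which encodes the partner that RUNX proteins bind DNA with, had 4944 and 3320 counts, with -0.19 as the log2 ratio (interval -0.25 to -0.12). *Atf4*, which encodes a factor of amino acid supply and osteoblast function, stood at -0.25 on the log2 scale (interval -0.32 to -0.19).

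**Figure D4:**
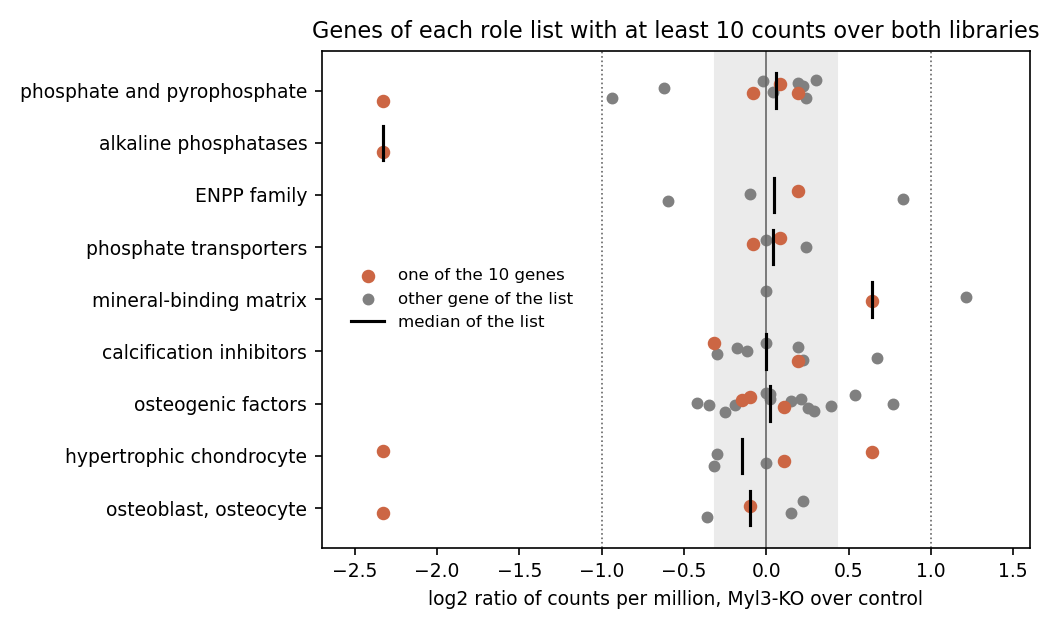
Log2 ratio of *Myl3*-KO over control for the genes of 9 role lists with at least 10 counts, with the 10 genes in orange, other genes of the lists in grey and a black bar at each list's median. Some genes stand in several lists, dotted lines mark the limit of 1, and the grey band spans the 10th to 90th percentile of all genes. *Alpl* at -2.33 and *Omd* at 1.21 are the genes beyond the dotted lines.

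Across the 9 role lists there were 76 different genes, of which 48 had enough counts and 17 were at 0 counts in both libraries. *Alpl* was the 1 gene of these past the limit on the lower side, against 1.19% of all genes. *Omd* was the 1 on the higher side, against 2.16% of all genes. The interval lay below 0 for 12 genes, against 20.1% of all genes, and above 0 for 16, against 22.2%.

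Of 11 genes of hypertrophic cartilage, 6 had enough counts, *Panx3* was at 0 in both libraries, and the median log2 ratio was -0.15. *Col10a1*, the collagen gene that defines hypertrophic chondrocytes, had 1 count in control and 5 in *Myl3*-KO. *Ihh*, the growth plate hedgehog gene, had 5 and 1, and the collagenase gene *Mmp13* had 2 and 4. *Vegfa*, the vascular growth factor gene, was counted 978 and 607 times, with -0.30 as the log2 ratio (interval -0.45 to -0.15). Of 15 osteoblast and osteocyte genes, 5 had enough counts and 5 were at 0 in both libraries, among them *Sost*, *Pdpn* and *Tnfsf11*. *Phex*, an endopeptidase gene of osteoblasts and osteocytes, had 1177 counts in control and 703 in *Myl3*-KO, with -0.36 as the log2 ratio (interval -0.49 to -0.22). *Col1a2* and *Col1a1*, the type I collagen genes, had log2 ratios of 0.22 (interval 0.22 to 0.23) and 0.15 (interval 0.12 to 0.19).

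The summed levels of the marker lists, given without counting error, differed between the libraries in both directions. The 6 osteoblast markers summed to 148.0 FPKM in control and 164.1 in *Myl3*-KO, nearly all of it *Col1a1*, with *Bglap2* at 0 in both. The 4 osteocyte markers summed to 17.4 and 13.5 FPKM, with *Mepe* and *Sost* at 0, and the 5 hypertrophic markers to 0.640 and 0.800. The hypertrophic sum rests on few reads, most of it on *Pth1r* with 18 counts in control and 11 in *Myl3*-KO. The 4 markers of macrophages and other blood cells summed to 1.02 and 1.31 FPKM, and the 3 of endothelium to 0.110 and 0.170. The endothelial sum also rests on few reads, with *Pecam1* at 5 counts in each library and *Kdr* at 2 in control and 5 in *Myl3*-KO. Within the fibroblast list *Dcn*, the decorin gene, was lower in *Myl3*-KO, with 631 counts in control, 155 in *Myl3*-KO and a log2 ratio of -1.64. The other markers of that list with enough counts did not share this. *Pdgfra* stood at 0.61 (interval 0.25 to 0.97), *Col1a2* at 0.22, *Col3a1* at 0.01 and *Postn* at -0.08. The part of these cell types in the *Alpl* result was not tested.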

How the data were processed

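RNA sequencing of 1 control and 1 *Myl3*-KO library of primary chondrocytes was analysed. Per gene, the authors deposited an expected count, an estimate of its reads that is not normalized, and an FPKM value, scaled by gene length and library. The table has 22156 genes. The aligner, the counter and the strand setting are not given in the sources used here, and the submitters' processing notes name the builds GRCm38 and mm10. The methods describe mRNA taken on oligo beads, while the labels name a SMARTER kit. Library totals were 17612434.91 and 13477976.98 counts, and counts of the 10 genes were all whole numbers. The column headed NC was read as control, because the other is headed KO.

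Log2 ratios of CPM used a floor of 3 counts, and 95% Clopper-Pearson intervals cover counting error only. Ratios were formed where both libraries together held at least 10 counts, which left 12431 genes. With 1 library per genotype the genotypes have no replicates to test, and no p-value was computed. The members and lists were chosen with earlier results of these data known. Genes of the lists were named where the ratio passed 1 in size or the interval excluded 0, at most the 3 largest and the 2 best counted of a list, besides genes at 0, overlapping genes and the 5 genes nearest in ratio to *Alpl*. Cell type marker genes, *Abcc6*, *Dmp1*, *Dlx6*, *Ggcx* and *Sparc* were added after their values were seen. Loci are from GENCODE M21 and promoters from RefSeq, from 250 bases before to 50 after the start. Alternatives were TMM factors (edgeR 4.0.16), DESeq2 1.42.0 size factors, other filters and limits, an added count of 1, and the ratio of FPKM values. The ratio was tested on simulated data that held counting error alone, so this check does not cover spread between libraries of 1 genotype. The result of 1 listed gene is not reported here. Python 3.11.15, numpy 2.4.6, pandas 2.3.3, scipy 1.17.1, matplotlib 3.10.9 and R 4.3.3 were used.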

Additional observations from a re-analysis of the deposited data

How the results depend on the processing

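The log2 ratio of *Alpl* stayed between -2.35 and -2.17 with TMM factors, DESeq2 size factors, no filter, 1 count added or the FPKM ratio, and *Alpl* passed a limit of 2 as well. With at least 10 counts required in each library, its 7 counts in *Myl3*-KO remove it, and 0 of the remaining members passed the limit on the lower side. When the limit was set at 0.5, 1 member passed on the higher side, *Spp1*, whose ratio ranged from 0.62 to 0.64. Every other member kept its direction, with *Runx2* at 0.09 to 0.18 and *Mgp* at -0.34 to -0.31. The median over the 6 genes of the hypertrophic list with enough counts turned from -0.15 to 0.21 with the FPKM ratio. *Pth1r* had 18 counts in control and 11 in *Myl3*-KO but 0.46 and 0.54 FPKM. *Mef2c* had a log2 ratio of 0.00 from counts but 3.2 FPKM in control and 4.08 in *Myl3*-KO. Why counts and FPKM differ for these genes was not tested.

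Over all genes, 148 were past the limit on the lower and 268 on the higher side. With at least 10 counts in each library these were 31 and 108, with a limit of 2 they were 6 and 31, and with a limit of 0.5 they were 466 and 993. No paired analysis was possible because each genotype had 1 library and no result comes from a test. Leaving out a library was not possible either. Depth limits *Ibsp* to no ratio and *Dlx5* and *Sp7* to wide intervals.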
